A study of Mus musculus with 12 samples.

Results

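The TNF superfamily genes examined here are 37 genes of the 21000 protein-coding genes on the mouse chromosomes. They comprise 14 receptors, 15 ligands, 5 TRAF adaptors and 3 regulators of receptor signalling, and were chosen by name. A gene was called bound where a BATF peak had its summit in the gene body or within 50 kb of it on mm10 (GRCm38). The gene body ran from the first to the last base of the gene's curated RefSeq transcripts.

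The question was where in the genome BATF sits in Th9 cells, which make IL-9, and in Th17 cells, which make IL-17. Both are CD4+ helper T cells, and binding was mapped by ChIP-seq, in which DNA held by an antibody to BATF is sequenced. Naive T cells of C57BL6/J mice were activated with anti-CD3 and anti-CD28. Th9 cultures received IL-4, IL-2, TGF-β1 and anti-IFNγ, and Th17 cultures received IL-6, TGF-β1, IL-23, IL-1β and antibodies to IFNγ, IL-4 and IL-2. Chromatin was taken on day 5 without restimulation, and the labels name no deletion, transgene or age. BATF was precipitated in 2 libraries per cell type, numbered 1 and 2 for Th9 and 3 and 4 for Th17, and each had its own input and IgG controls under the same number. Nothing in the labels says that these libraries came from separate animals or cultures, so a p-value between them measures only the spread between libraries, which may be technical. The chromatin came from whole cultures, so weaker binding in every cell and binding in fewer cells cannot be told apart.

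TNF superfamily ligands are trimers, mostly on the cell surface, that cluster receptors on the same or a neighbouring cell. Receptors with a death domain, such as Fas, can start apoptosis, and the others recruit TRAF adaptors that lead to NF-κB and MAP kinases. On T cells, OX40, GITR, CD30 and 4-1BB are receptors of this family that appear or increase after activation and give costimulatory signals. BATF is a basic leucine zipper factor that pairs with JUN proteins on AP-1 sites, often beside IRF4.

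The authors deposited, for each library, a list of MACS2 peaks called against its input and IgG libraries together. These lists held 1709, 241, 4111 and 199 peaks in libraries 1 to 4. Each peak has a fold enrichment, that is, the fragment pileup at its summit divided by the pileup predicted locally, and a −log10 q, which rises with the confidence of the call. The depth of the libraries is unknown from the lists, and a gene without a peak is below the threshold of that library and not shown to be unbound. Of the 3 genes listed for Th9 cells, Il9 and Irf4, which other helper T cells also use, had a summit by the same rule in library 2 alone, and Spi1 had one in no library. Of the 5 genes given here for Th17 cells, Il17a and Il17f had one in libraries 3 and 4 and also in library 1, Il1r1 and Ccr6 in library 3 alone, and Il23r in library 1 alone. Library 1, labelled Th9, thus had no summit at the genes listed for Th9 cells and had one at 3 of the 5 for Th17 cells, which goes against its label. In that library 9.44% of all protein-coding genes had a summit. The 3 genes are weak evidence, because Il17a and Il17f are neighbours with the same counts in every library and may share a site. Il23r had no summit in either Th17 library. Peaks measure binding and not expression, so the cells of library 1 are called Th9 here by their label only. Most Th9 results rest on it, and they are given with and without it.

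BATF summits lay at 6 of the 37 genes in Th9 cells and at 15 in Th17 cells. Of the 6 Th9 genes, 5 were receptors, and so were 6 of the 15 Th17 genes. Tnfrsf4 (OX40) and Tnfrsf18 (GITR) shared a site called in 3 of the 4 libraries. The peaks at ligands and regulators were all called in Th17 libraries. Of the 15 ligands, 0 were bound in Th9 cells, where 10.6% of all genes were, and 4 in Th17 cells, where 22.5% were. A difference by role was not tested. For all 37 genes, the Th9 share was 16.2% (95% exact binomial interval 6.19 to 32.0) against 10.6% of all protein-coding genes. The Th17 share was 40.5% (24.8 to 57.9) against 22.5% of all protein-coding genes. Bound in both cell types were 4 genes, or 10.8% (3.03 to 25.4) against 3.89% of all genes, and bound in either were 17 genes, or 45.9% (29.5 to 63.1) against 29.2%. The intervals cover counting error only and treat the genes as separate, although 19 of the 37 lie in 8 loci whose 50 kb windows overlap. Counted by locus, 5 of 26 were bound in Th9 cells, 13 in Th17 cells, 3 in both and 15 in either. The same share was not calculated for the loci of all genes. Joined windows are longer than those of single genes, so the shares by gene are no background for these counts. Without library 1, the Th9 genes were Tnfrsf4 and Tnfrsf18 alone, at 1 locus, and these 2 were then also the genes bound in both cell types. Without library 3, the Th17 genes were Fasl and Traf5 alone, and no gene was bound in both cell types. Library 4, then the only Th17 library, had a summit at 1.23% of all genes. The share of all genes bound in both cell types was not calculated with a library left out, so these overlaps have no background.

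The 2 libraries with the most peaks had the most bound genes. Th9 library 1 had 6 bound genes (16.2% against 9.44% of all genes) and Th9 library 2 had 2 (5.41% against 1.74%). Th17 library 3 had 14 (37.8% against 22.2%) and Th17 library 4 had 2 (5.41% against 1.23%). The mean was 4.0 ± 2.83 bound genes (SD, n = 2) in Th9 and 8.0 ± 8.49 (SD, n = 2) in Th17 libraries, a difference of 4.0 with a two-sided exact permutation p of 1. With 6 arrangements of the libraries, the smallest p this design allows is 0.33. The 2 libraries of one cell type differed by 4 bound genes in Th9 and by 12 in Th17. Leaving out Th17 library 3 turned the difference per library to −2.0 and left 2 bound genes in Th17 cells, and leaving out library 1 left 2 in Th9 cells. With the top 199 peaks of each library, 2 genes were bound in Th9 (5.41% against 2.38% of all genes) and 4 in Th17 cells (10.8% against 2.32%). With a −log10 q of at least 5, it was 2 (5.41% against 3.95%) and 9 (24.3% against 11.4%). In regions that both Th9 or both Th17 libraries share, it was 2 (5.41% against 0.467%) and 1 (2.70% against 0.719%). In each of these settings, and in library 2, the 2 Th9 genes were the neighbours Tnfrsf4 and Tnfrsf18, counted from 1 shared site.

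**Figure D1:**
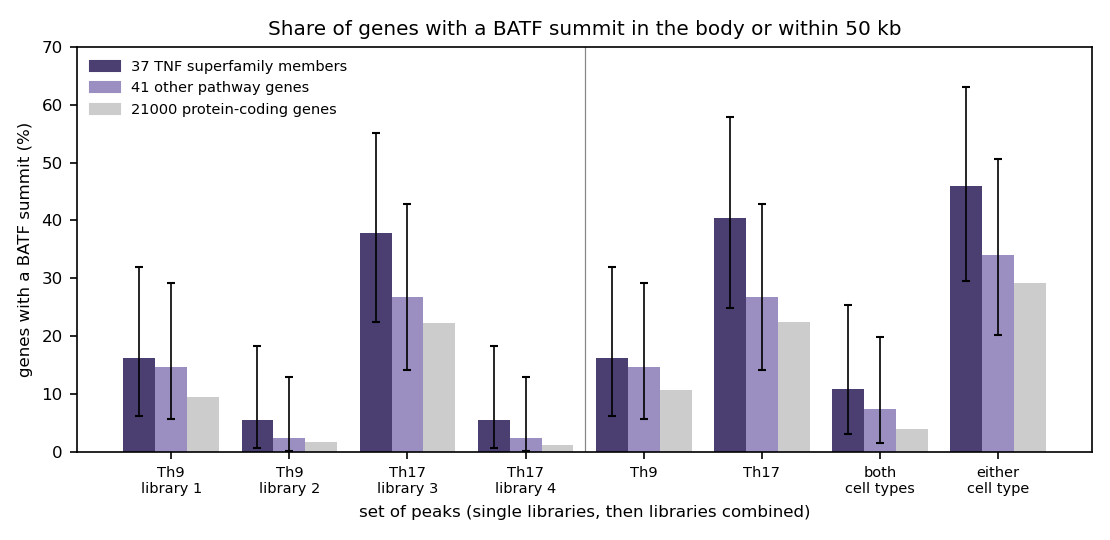
Percent of genes with a BATF summit in the body or within 50 kb, for the 37 TNF superfamily genes, 41 other genes of the pathway and 21000 protein-coding genes, in each library and in the libraries combined. Bars are percentages and error bars are 95% exact binomial intervals. The TNF superfamily bar stands above the grey bar in all 8 sets, and its interval includes the grey bar's value in 5 of them. The sets on the right are made of the libraries on the left.

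The windows of the 37 genes covered 3.81 Mb, against 1620 Mb for the windows of all protein-coding genes. Per megabase, they held 1.58 summits in library 1 (95% exact Poisson interval 0.578 to 3.43, 6 summits), against 0.735 in the windows of all genes. The density was 0.263 (0.00665 to 1.46, 1 summit) against 0.109 in library 2 and 3.41 (1.82 to 5.84, 13 summits) against 1.77 in library 3. In library 4 it was 0.525 (0.0636 to 1.90, 2 summits) against 0.0888. The members were of ordinary size, with a median gene length of 16940 bp against 16724 bp, and had a median of 2 other protein-coding genes within 50 kb against 3. With all genes cut by length into a short, a middle and a long set of equal size, 3 of 13, 8 of 18 and 4 of 6 members were bound in Th17 cells, against 16.6%, 19.5% and 31.4% of all genes of those sets. Among genes with at most 2 protein-coding neighbours, 12 of 22 members were bound in Th17 cells against 24.2% of all such genes. Among those with more than 2 and at most 4 neighbours it was 2 of 8 against 21.3%, and among those with more than 4 neighbours 1 of 7 against 20.3%. All of these Th17 genes except Fasl had a library 3 summit. In Th9 cells it was 2 of 13, 2 of 18 and 2 of 6 by length, against 6.53%, 8.53% and 16.7%. By neighbours, in the same order, it was 4 of 22, 1 of 8 and 1 of 7, against 12.7%, 9.21% and 7.59%.

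By role, 7 of 14 receptors, 4 of 15 ligands, 3 of 5 adaptors and all 3 regulators were bound in either cell type, where 29.2% of all protein-coding genes were. The ligands' count is near that share, and of the 3 regulators Birc2 and Birc3 are neighbours that share a peak. The genes bound in Th9 cells were 5 receptors, no ligand, 1 adaptor and no regulator, against 10.6% of all genes, and 2 receptors without library 1, against 1.74%. Those bound in Th17 cells were 6 receptors, 4 ligands, 2 adaptors and 3 regulators, against 22.5%. Without library 3 they were 1 ligand and 1 adaptor, against 1.23%. The 4 genes bound in both cell types, Tnfrsf4, Tnfrsf18, Tnfrsf8 and Tnfrsf10b, were receptors, and their Th17 summits were all in library 3. In the lists called against IgG alone, Traf3 and Tnfrsf10b had no Th9 summit, and Fas, Tnfsf18 and Tnfaip3 had no Th17 summit. That left 4 genes in Th9 and 12 in Th17 cells, with Tnfrsf10b bound in Th17 cells only. The share of all genes was not calculated for those lists.

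**Figure D2:**
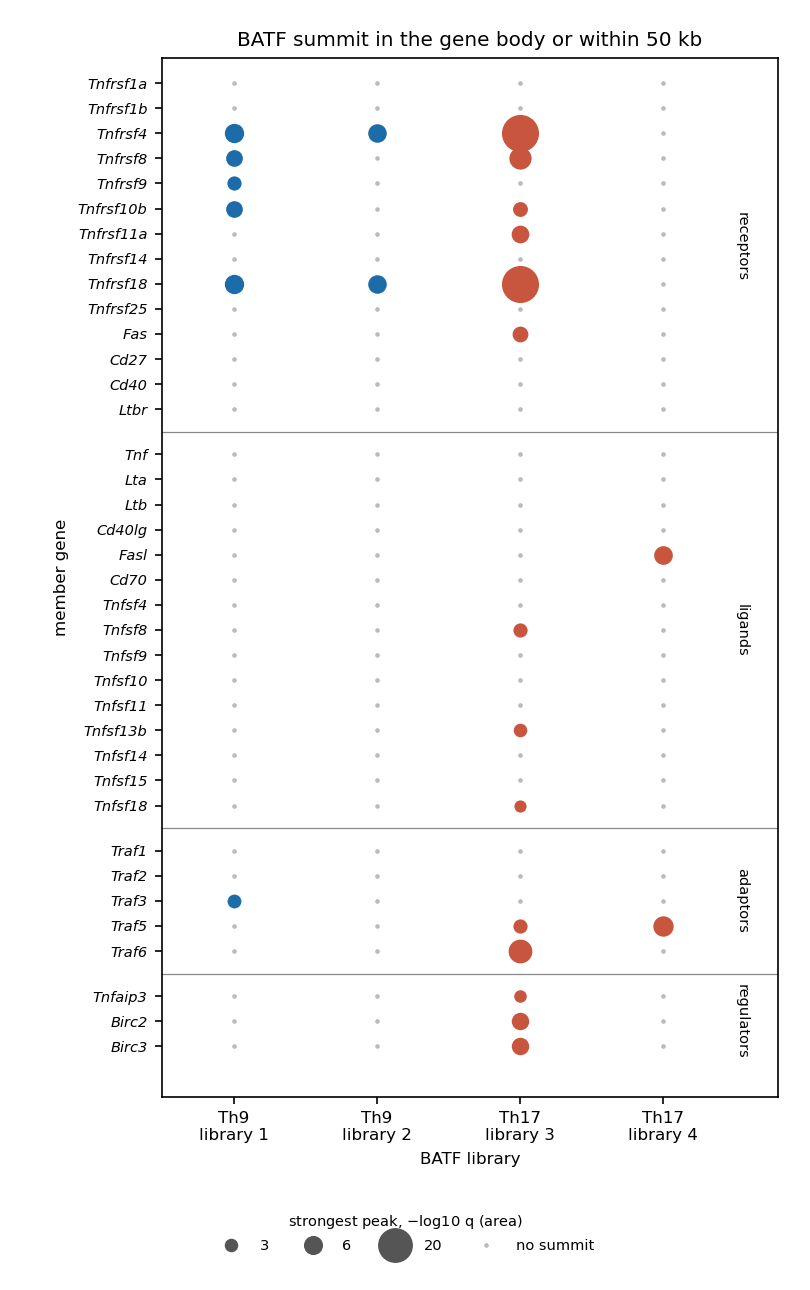
Each of the 37 genes (rows, grouped by role) in each of the 4 BATF libraries (columns). A coloured disc marks a summit in the body or within 50 kb, its area rises with the −log10 q of the strongest such peak, and a small grey dot marks no summit. Tnfrsf4 and Tnfrsf18 carry discs in 3 libraries, the ligand discs all lie in the Th17 columns, and most rows have no disc.

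Tnfrsf4 encodes OX40 and Tnfrsf18 encodes GITR, costimulatory receptors of activated and regulatory T cells. Their genes are neighbours on chromosome 4, and the summits near them were the same for both. The site called in 3 libraries lay in an intron of Sdf4, the gene just before Tnfrsf4, and the nearest transcription start was that of Tnfrsf4. In Th17 library 3 the peak spanned chr4:156008277-156008583, with fold enrichment 14.1 and −log10 q 22.6, and ranked 47 of 4111. In Th9 library 1 it spanned chr4:156008334-156008514, with fold enrichment 6.54 and −log10 q 6.15. In Th9 library 2 it spanned chr4:156008362-156008533, with fold enrichment 6.94 and −log10 q 5.67. Th17 library 4 had no peak there in any of its lists. The summits were 5243 bp (library 3), 5270 bp (library 1) and 5253 bp (library 2) before the Tnfrsf4 start and 17870 bp to 17897 bp before the Tnfrsf18 start. The closest Th9 and Th17 summits were 10 bp apart. Against the single controls, library 3 had fold enrichments of 13.2 (IgG) and 14.1 (input) and library 2 had 6.94 and 6.63. Library 1 had 7.37 against IgG and no peak against input. A second peak, called in Th9 library 1 alone, lay between genes 28418 bp before Tnfrsf4, with fold enrichment 6.04 and −log10 q 4.60.

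**Figure D3:**
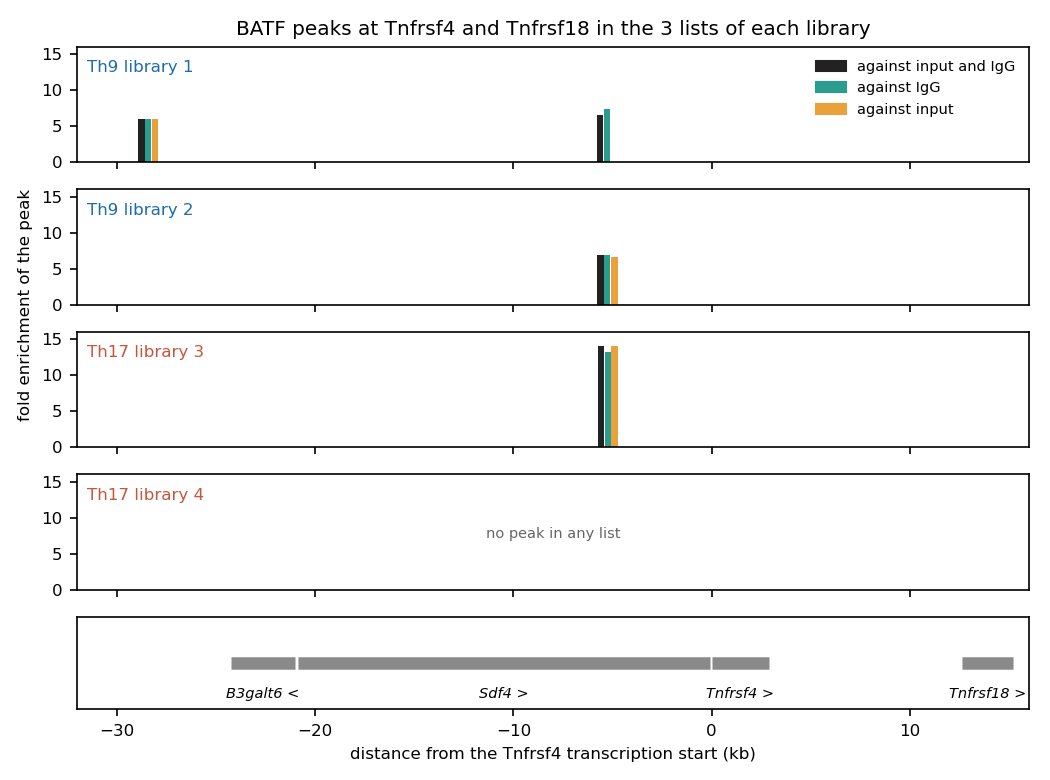
BATF peaks around Tnfrsf4 and Tnfrsf18 in the 12 lists. The horizontal axis is the distance from the Tnfrsf4 start in kb and the vertical axis the fold enrichment of each peak, with the 3 controls drawn side by side for legibility. The peak about 5 kb before Tnfrsf4, inside Sdf4, appears in libraries 1, 2 and 3 and reaches 14.1 in library 3.

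The first 300 bases of this region are shown because it was the only site at a receptor that more than 1 library shared, with the AP-1 site in capitals (the sequences here and below are from RefSeq GRCm38.p6).
Tnfrsf4 and Tnfrsf18, chr4:156008277-156008576, + strand: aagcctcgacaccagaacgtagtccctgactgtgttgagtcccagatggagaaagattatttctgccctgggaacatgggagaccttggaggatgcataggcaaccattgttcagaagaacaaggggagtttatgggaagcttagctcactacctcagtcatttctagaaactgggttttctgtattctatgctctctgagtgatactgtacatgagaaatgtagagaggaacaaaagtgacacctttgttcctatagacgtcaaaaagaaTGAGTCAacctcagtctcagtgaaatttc
The letters TGAGTCA, the reverse complement of the AP-1 site TGACTCA, occupied chr4:156008548-156008554. Their centre lay 99 bp after the library 3 summit, so the site ran past the end of the window of 100 bp searched around that summit. It lay inside the library 3 peak and beyond the end of both Th9 peaks. Within the 100 bp window, 2 runs matched 6 of the 7 letters, 18 bp before and 25 bp after the summit. Runs matching 6 or 7 of the letters are common, and 58.4% of all regions had one in that window.

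Tnfrsf8 encodes CD30, and it was bound in both cell types at different places. In Th9 library 1 the peak lay in an intron of Tnfrsf8, 4268 bp after its start, with fold enrichment 5.81 and −log10 q 4.60. In Th17 library 3 it lay between genes, 27165 bp before the start, with fold enrichment 7.90 and −log10 q 8.14. The summits were 31433 bp apart. Libraries 2 and 4 had no peak there. Tnfrsf10b encodes the mouse death receptor for TRAIL, and its summits were also apart, by 29504 bp. The Th9 library 1 peak lay 25075 bp before the start, in an intron of 4930480K23Rik, with fold enrichment 5.85 and −log10 q 4.58. Repeats masked in the genome made up 81.7% of its bases. The Th17 library 3 peak lay in an intron of Tnfrsf10b, 4429 bp after its start, with fold enrichment 5.02 and −log10 q 3.64. Neither gene had a site that both cell types shared.

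The other 3 bound receptors had 1 peak each, in 1 library. Tnfrsf9, which encodes the costimulatory receptor 4-1BB, had a Th9 library 1 peak 2539 bp before its start, with fold enrichment 4.83 and −log10 q 3.32. Tnfrsf11a, which encodes RANK, the receptor through which RANKL drives osteoclast formation, had a Th17 library 3 peak in an intron, 32712 bp after its start (fold enrichment 6.15, −log10 q 5.16). Fas, the death receptor, had a Th17 library 3 peak 41871 bp before its start, in an intron of Acta2, whose start was the nearest (fold enrichment 5.65, −log10 q 4.12). None of these was called in the second library of its cell type.

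Each of the 4 bound ligands had 1 peak in 1 Th17 library. Fasl, the ligand of Fas, had a library 4 peak 45722 bp past the gene's end, with fold enrichment 7.02 and −log10 q 5.76. Tnfsf8 (CD30 ligand) had a library 3 peak in an intron, 10689 bp after its start, with fold enrichment 5.08 and −log10 q 3.32. Tnfsf18 (GITR ligand) had a library 3 peak in an intron, 2541 bp after its start, with fold enrichment 3.42 and −log10 q 2.45. Only 2.89% of that list's peaks had a lower −log10 q. Tnfsf13b, which encodes BAFF, a survival factor for B cells, had a library 3 peak 39286 bp past its end (fold enrichment 4.57, −log10 q 3.03).

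TRAF adaptors carry the signal from most of these receptors, and 3 of the 5 were bound. Traf5 was the only one of the 37 genes bound in both Th17 libraries. Its peaks lay about 36 kb past the gene's end, where the nearest start was that of Rd3. Library 4 called chr1:191960886-191961263 with fold enrichment 7.57 and −log10 q 6.82, and library 3 called chr1:191960918-191961127 with fold enrichment 5.08 and −log10 q 3.32. The first 300 bases of the region are shown because of their repeated pattern, with the most frequent run of 10 letters in capitals.
Traf5, chr1:191960886-191961185, + strand: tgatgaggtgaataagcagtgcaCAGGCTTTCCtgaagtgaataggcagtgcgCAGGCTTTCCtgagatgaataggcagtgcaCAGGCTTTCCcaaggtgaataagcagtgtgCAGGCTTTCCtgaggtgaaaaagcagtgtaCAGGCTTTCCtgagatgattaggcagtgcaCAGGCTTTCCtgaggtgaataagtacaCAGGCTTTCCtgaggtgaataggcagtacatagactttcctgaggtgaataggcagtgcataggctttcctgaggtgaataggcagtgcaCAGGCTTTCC
The capitals, CAGGCTTTCC, occur 8 times in the 300 bases. Shifted by 30 bases, the 201 bases around the strongest summit matched themselves at 77.2% of positions, against a median best match of 34.8% over all 5873 regions of the 4 libraries, and no other region reached this value. None of the bases was marked as a repeat in the genome file, and no AP-1 site lay in the region. Whether reads from other copies of this pattern contributed to the peak was not tested.

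Traf6, which also serves the interleukin-1 and Toll-like receptors, had a Th17 library 3 peak in an intron of Prr5l, 36233 bp past the end of Traf6, with fold enrichment 8.47 and −log10 q 9.30. Its rank was 426 of 4111. Traf3, a negative regulator of the alternative NF-κB pathway, had a Th9 library 1 peak 993 bp before its start, with fold enrichment 5.03 and −log10 q 3.15. It was the only one of the 19 regions within 1000 bp of a transcription start. The regulators restrain or redirect the signal by editing ubiquitin chains, and all 3 were bound in library 3 alone. Tnfaip3 (A20) had a peak 30531 bp before its start, with fold enrichment 4.52 and −log10 q 2.60, and none was called there against IgG alone. Birc2 and Birc3 (cIAP1 and cIAP2) are neighbours on chromosome 9 and shared a peak in a coding exon of Birc3, with fold enrichment 6.21 and −log10 q 5.02. Birc2 had a second peak 19946 bp past its end with the same values.

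**Figure D4:**
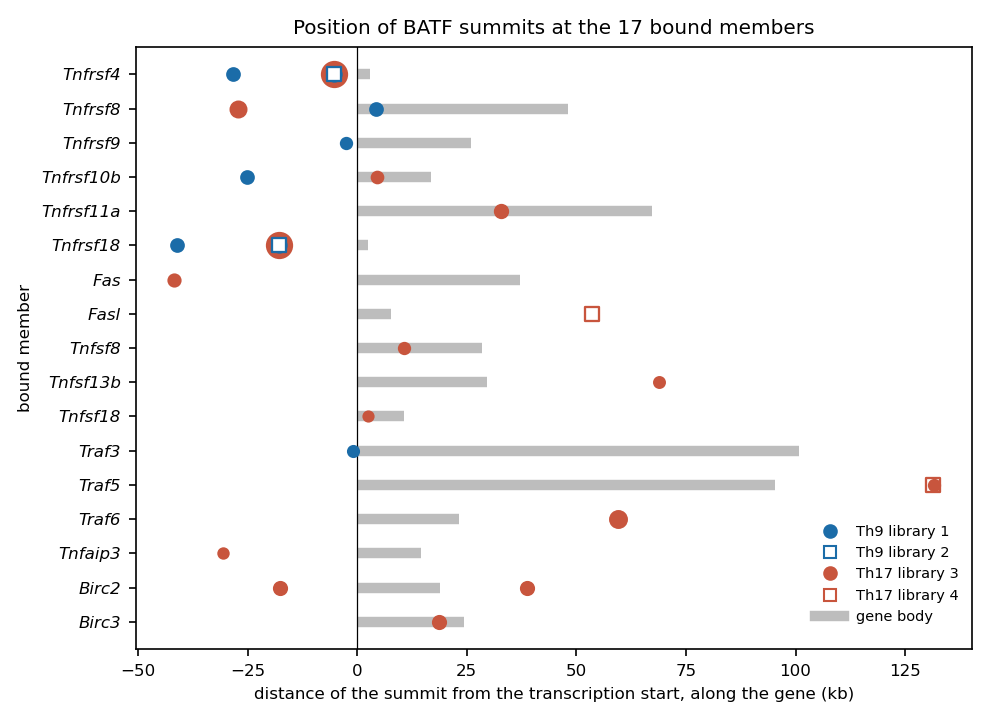
Distance in kb from the transcription start, along the direction of the gene, of every BATF summit at the 17 bound genes. Grey bars are gene bodies, colours are cell types, filled circles are libraries 1 and 3, open squares libraries 2 and 4, and symbol area rises with −log10 q. Summits of different libraries coincide at Tnfrsf4 and Tnfrsf18 and at Traf5, and few lie next to a start.

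The remaining 20 genes had no summit within 50 kb in any library. Among receptors these were Tnfrsf1a and Tnfrsf1b (the TNF receptors), Tnfrsf14 (HVEM), Tnfrsf25 (DR3), Cd27, Cd40 and Ltbr (the lymphotoxin-β receptor). Among ligands they were Tnf, Lta and Ltb, which share 1 locus, Cd40lg, Cd70, Tnfsf4 (OX40 ligand), Tnfsf9 (4-1BB ligand), Tnfsf10 (TRAIL), Tnfsf11 (RANKL), Tnfsf14 (LIGHT) and Tnfsf15. Traf1 and Traf2 completed the list. Their nearest summit lay between 53592 bp (Tnfsf15) and 922903 bp (Tnfsf14) from the gene body. Tnfsf4, the OX40 ligand gene, had its nearest summit at 78992 bp. Just inside the 50 kb limit were the library 1 peak at 41045 bp from Tnfrsf18 and the peaks of Fas at 41871 bp and Fasl at 45722 bp. Just outside were those at 50419 bp from Birc3, which counts for Birc2, and at 53592 bp from Tnfsf15.

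The counts depended on the limit. Within 10 kb, 4 genes (10.8% against 5.19% of all genes) were bound in Th9 cells and 6 (16.2% against 10.5%) in Th17 cells. Inside the gene body itself it was 1 (2.70% against 3.64%) and 5 (13.5% against 7.20%). Within 100 kb it was 11 (29.7% against 16.9%) and 19 (51.4% against 35.0%). Without library 1, the Th9 counts were 1 within 10 kb (2.70% against 0.786%), 0 in the body (0.514% of all genes) and 3 within 100 kb (8.11% against 2.80%). Library 4 had its summits at Fasl and Traf5, 45722 bp and 36066 bp from the body. The Th17 counts within 10 kb and inside the body thus rest on library 3 alone.

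Of 41 further genes of the pathway (other receptors, ligands and signalling proteins), 6 (14.6%) were bound in Th9 and 11 (26.8%) in Th17 cells, 3 in both and 14 (34.1%) in either. The shares of all genes were those given above, 10.6%, 22.5%, 3.89% and 29.2%. Without library 1, 1 of the 41 (2.44%) was bound in Th9 cells, against 1.74%. Without library 3, 1 (2.44%) was bound in Th17 cells, against 1.23%. Tnfrsf13b, a receptor for BAFF, had the strongest peak among them, in library 3, 3645 bp from the gene, with fold enrichment 14.1 and −log10 q 22.6. Otulin, which removes linear ubiquitin chains, was bound in both Th17 libraries, and its strongest peak lay in its body with fold enrichment 8.47 and −log10 q 9.30. Map3k7, which encodes the kinase TAK1, was bound in both Th9 libraries, most strongly in library 1 with fold enrichment 6.53 and −log10 q 5.46.

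The 22 peaks at the 37 genes lay at many levels of their lists, and 12 of them had a higher −log10 q than 50% of their list. Identical values recurred at unrelated sites. In library 3 the 4111 peaks had 277 different pairs of fold enrichment and −log10 q, and 577 peaks, those of Tnfsf8 and Traf5 among them, shared the pair 5.08 and 3.32. The pair of Birc2 and Birc3 was shared by 383 peaks and that of the Tnfrsf4 peak by 10.

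**Figure D5:**
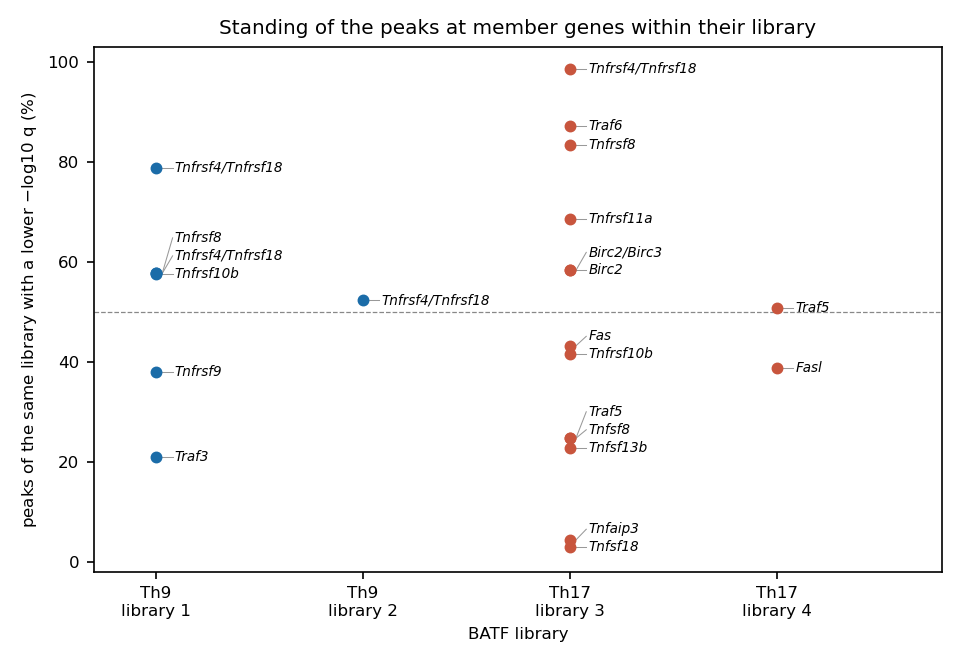
Percent of the peaks of the same library that have a lower −log10 q, for each peak at the 37 genes, by library. The dashed line marks 50%, 12 of the 22 peaks lie above it, and the library 3 peaks run from Tnfsf18 at 2.89% to Tnfrsf4 and Tnfrsf18 at 98.6%.

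Merged across libraries, the peaks formed 19 regions, 6 in Th9 and 14 in Th17 cells, of 5873, 1878 and 4206 regions in all. By summit, 10 lay in introns, 8 between genes and 1 in a coding exon. The nearest start was that of the named gene at 13 of them. The Tnfrsf4 and Traf5 regions were the 2 called in 2 or more libraries, against 4.73% of all regions. Median width was 203 bp against 191 bp for all regions, median fold enrichment 5.85 against 5.64, and median GC content 43.3% against 41.3%.

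AP-1 sites (TGACTCA or its reverse complement TGAGTCA) lay within 100 bp of the summit in 6 of the 19 regions, or 31.6% (95% exact binomial interval 12.6 to 56.6), against 17.0% of all regions. In Th9 it was 1 of 6 (16.7%, 0.421 to 64.1) against 15.7% of all Th9 regions, and in Th17 5 of 14 (35.7%, 12.8 to 64.9) against 19.1%. Among only those regions that lay near genes, the shares were higher, 19.8% for all libraries, 17.6% in Th9 and 22.5% in Th17. Without library 3, 1 of 2 Th17 regions had the site, and without library 1 the single Th9 region had none. In equally long windows centred 2000 bp away on each side, it was 2 of 38 for these regions and 3.42% for all. Both were beside Th9 regions, where 2 of 12 such windows had the site, against 1 of 6 at the summits. Beside Th17 regions it was 0 of 28, against 5 of 14 at the summits. Of the 8 regions whose −log10 q reached 5, 4 had the site, against 30.9% of all such regions, and of the 11 others 2 had it, against 8.66%. The 6 sites belong to Tnfrsf8 (the Th17 region), Tnfrsf9, Tnfrsf11a, Fas, Fasl and Traf6. Searching the called region itself, of whatever width, 7 had a site (36.8%, 16.3 to 61.6) against 17.5%. That search, chosen after the values were seen, adds Tnfrsf4 with Tnfrsf18, Tnfrsf10b (the Th17 region) and Tnfsf8. It loses Tnfrsf11a, whose site lies outside the called region, and Fas, whose site crosses the edge of its region. The sites other than that of Tnfrsf4 are shown with 20 bases to either side and the AP-1 letters in capitals.
Tnfrsf8, chr4:145342364-145342410, + strand: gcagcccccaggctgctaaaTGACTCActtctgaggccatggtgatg
Tnfrsf9, chr4:150917538-150917584, + strand: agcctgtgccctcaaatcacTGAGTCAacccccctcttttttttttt
Tnfrsf10b, chr14:69771724-69771770, + strand: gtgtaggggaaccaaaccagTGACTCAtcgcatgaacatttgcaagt
Tnfrsf11a, chr1:105813494-105813540, + strand: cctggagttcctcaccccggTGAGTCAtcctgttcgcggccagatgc
Fas, chr19:34248698-34248744, + strand: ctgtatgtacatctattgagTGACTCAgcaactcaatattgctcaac
Fasl, chr1:161734992-161735038, + strand: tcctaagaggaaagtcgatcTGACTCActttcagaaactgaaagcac
Tnfsf8, chr4:63850464-63850510, + strand: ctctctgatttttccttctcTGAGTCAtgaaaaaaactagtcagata
Traf6, chr2:101737841-101737887, + strand: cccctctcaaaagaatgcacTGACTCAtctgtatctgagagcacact
Both orientations occur, TGACTCA in 5 of these 8 lines and TGAGTCA in 3.

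RUNX letters (TGTGGTT, both strands) lay within 100 bp of the summit in 5 of the 19 regions (26.3%, 9.15 to 51.2) against 7.20% of all regions: both Tnfrsf8 regions, Tnfrsf9, Tnfsf13b and the region shared by Birc2 and Birc3. Of all regions near genes, 7.92% had them. By cell type it was 2 of 6 in Th9 against 7.77% and 3 of 14 in Th17 against 7.11%. In windows 2000 bp away it was 0 of 38, against 4.79% for all. RUNX was 1 of several motifs searched, and no share was tested. The STAT letters TTCNNNGAA lay in 2 (10.5% against 8.87%), both at Tnfrsf8. The cyclic AMP response element TGACGTCA, against 0.221% of all regions, the κB consensus, against 3.29%, and an AP-1 site with GAAA directly before it, or with TTTC and any 4 bases before it (the composite with IRF, which contains the AP-1 site), against 1.36%, were found in none. These are matches of letters in a window and not measured binding of those factors.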

How the data were processed

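Per the labels and methods, BATF ChIP-seq reads were paired-end, and the submitters' processing notes name Trim Galore 0.4.3, Bowtie2, MACS2 2.1.0 and mm10. MACS2 was run by the authors on fragment pairs with every duplicate kept and a q cutoff of 0.01, once per library and control (IgG, input or both), which gave 12 lists. The control of a list was read from its name. The deposited values of a peak were its fold enrichment (a ratio over local background) and its −log10 q-value, and neither is scaled by depth between libraries. Duplicate fragments and repeated sequence can therefore raise both values.

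The lists called against input and IgG were used. Summits (start plus offset, 1-based) were assigned to gene bodies of curated transcripts of the RefSeq annotation of GRCm38.p6, extended by 50 kb. Peaks sharing at least 1 bp were merged into regions, and motifs were searched on both strands within 100 bp of the strongest summit. All 21000 protein-coding genes gave the background, and no random genes were drawn. Tests were exact permutations over libraries, and intervals were exact (95%). The members and lists were chosen with earlier results of these data known. Every member is named, those with a summit in 2 or more libraries or a −log10 q of at least 8 peak by peak, the rest by their strongest peak. Alternatives were the other controls, thresholds, windows, assignments and motif settings, and each library left out. The calculations were tested on simulated data. The result for 1 cell type marker is not reported here. The software was pysam 0.24.0, matplotlib 3.10.9, scipy 1.17.1, pandas 2.3.3 and numpy 2.4.6 in Python 3.11.15.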

Additional observations from a re-analysis of the deposited data

Results flagged for a closer look

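3 peaks near the 37 genes appeared in a list called against a single control and had no overlapping peak in the list of the same library called against both controls. All were Th17 library 3 peaks called against input alone, so they entered no count above. At Tnfsf8, a peak past the gene's end, 62439 bp from its start, had fold enrichment 4.28 and −log10 q 2.51. At Traf5, a peak past the gene's end, 118422 bp from its start, had fold enrichment 4.52 and −log10 q 2.60. Also at Traf5, a peak before the start (−23765 bp) had fold enrichment 6.08 and −log10 q 5.66, with an AP-1 site within 100 bp of its summit. The cause was not tested. With 2 libraries per cell type, no library was tested for standing apart from its group.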

How the results depend on the processing

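Of 77 recalculated values, 26 moved: a gene or region count by more than 1.5 times, or an AP-1 share to outside the 95% interval given above. Of the differences per library, judged by sign only, 1 reversed, and the others include 0.5 with the 10 kb window and 1.0 with the top 199 peaks, against 4.0. The other counts and shares stayed inside those limits, which are wide for the shares: the Th17 AP-1 share was 14.3% (2 of 14) within 50 bp of the summit and 16.7% (1 of 6) with the 10 kb window. With a minimum −log10 q of 5, 2 genes were bound in Th9 (3.95% of all genes) and 9 in Th17 cells (11.4%), in 1 and 8 regions, and the AP-1 share in Th9 was 0.0% (of 1 region). Requiring a region in both libraries of a cell type left 2 and 1 genes, in 1 and 1 regions, with AP-1 shares of 0.0% and 0.0%. Wherever 1 region was left, its AP-1 share could only be none or all. Both lie outside the intervals, so such a share had to count as moved and shows nothing about the site. The genes left were Tnfrsf4 and Tnfrsf18 in Th9 and Traf5 in Th17 cells. With the top 199 peaks of each library there were 2 and 4 genes, in 1 and 3 regions, and the Th9 AP-1 share was 0.0%. A window of 10 kb gave 6 genes and 6 regions in Th17 cells, and one of 100 kb gave 11 genes and 10 regions in Th9 cells. Within 50 bp of the summit, the Th9 AP-1 share was 0.0%. Leaving out each library in turn gave 2 to 6 genes and 1 to 6 regions in Th9 and 2 to 14 genes and 2 to 13 regions in Th17 cells. Their AP-1 shares were 0.0% to 16.7% and 30.8% to 50%. The lower gene counts came without library 1 and without library 3. The difference per library ranged from −2.0, without library 3, to 10, without library 4. The exact permutation p of the difference was 0.333 to 1 over its alternatives, and none could pass a threshold in this design. Requiring both libraries leaves no count per library, so that difference was not calculated. The search of the called region itself was added after seeing the data.

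No paired analysis was possible because no replicate number occurs in both groups (Th9 has 1 and 2, Th17 has 3 and 4). The number of peaks, from 199 to 4111, limits every count.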
